A study of Mus musculus with 12 samples.

Results

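Granzymes, the cytotoxic effector genes that act with them and a set of innate lymphoid regulators were followed across 4 groups of sorted mouse bone marrow LSK cells (Lin- Sca1+ cKit+), which include haematopoietic stem cells and multipotent progenitors. The set held 10 genes taken by symbol from the 39017 genes of the count table: the granzymes Gzma, Gzmb and Gzmc, the granule genes Prf1 and Nkg7, the regulators Zbtb16, Rora and Tbx21, and the receptor chains Il2rb and Klrd1. All 10 passed the filter on low counts, which left 16024 genes. RNA was sequenced in 12 libraries, 3 per group, with total counts between 30453271 and 43790674. The NOTCHWT_TCFWT group is wild-type mice given a control injection of poly(I:C) at 2 ug/g. The NICD_TCFWT group is R26 N1IC lox/+ Mx1Cre, in which Cre releases N1IC, the always-active intracellular part of the receptor Notch1. The NOTCHWT_TCFKO group is Tcf7 lox/lox Mx1Cre, which is meant to delete the transcription factor TCF-1, and the NICD_TCFKO group carries both alleles with Mx1Cre. All groups share the strain label C57BL/6J; Sv/129 and poly(I:C), which induces interferon and through it the Mx1 promoter, active in many haematopoietic and other cell types. No Cre is listed for the wild-type group, and only both NICD groups were also gated on CD45.2+ and eGFP+. In comparisons with the wild type, Cre therefore cannot be told apart from the alleles. Between an NICD group and a group without N1IC, this gate cannot be told apart from N1IC. NICD_TCFKO and NICD_TCFWT are stated to share Cre and the gate. Age, and whether replicates were separate mice or pools, are not given in the sources used here, so the tests speak of the spread between libraries, which may be technical.

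Granzymes are serine proteases that cytotoxic T cells and natural killer (NK) cells store in secretory granules. Perforin, the product of Prf1, forms pores in the target cell membrane through which granzymes enter and trigger cell death, and Nkg7 is a membrane protein of these granules. Gzmb is also known from mast cells. Zbtb16 encodes PLZF, a zinc finger factor of innate lymphoid progenitors and NKT cells, Rora encodes a nuclear receptor needed for group 2 innate lymphoid cells (ILC2), and Tbx21 encodes T-bet, a driver of NK and type 1 lymphocyte programmes. Il2rb is the beta chain shared by the IL-2 and IL-15 receptors, and Klrd1 (CD94) pairs with NKG2 chains on NK cells. In bone marrow these genes are best known from lymphocytes, most of which the lineage gate of an LSK sort is meant to remove.

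The genes that the labels name went against them in part, so group names stand throughout for libraries so labelled. The library titles also carry the names RAD (NOTCHWT_TCFWT), RNIC-CTRL (NICD_TCFWT), RNIC-Tg (NICD_TCFKO) and Tcf7-Tg (NOTCHWT_TCFKO). Levels are given in CPM, counts scaled to a common library size. Tcf7, stated to be deleted in NICD_TCFKO, was highest there, at 297, 896 and 615 CPM, against 0.267 to 19.6 CPM in the other 9 libraries. Notch1 was lower in the NICD_TCFWT libraries (157 to 195 CPM) than in the wild-type ones (541 to 622 CPM). The Notch targets Dtx1 and Hes1 were at 81.5 to 91.9 and 138 to 230 CPM in NOTCHWT_TCFWT, and at 0.0543 to 0.162 and 1.46 to 7.33 CPM in NICD_TCFWT, where N1IC is stated to be active. The LSK markers Kit (610 to 978 CPM) and Ly6a, which encodes Sca-1 (33.1 to 148 CPM), were present in every library. The 11 LSK cell genes, Kit and Ly6a among them, summed to 2205 to 2525 CPM in NOTCHWT_TCFWT and 1579 to 2371 CPM in NICD_TCFKO. Their sums were higher in NICD_TCFWT (3429 to 3963 CPM) and NOTCHWT_TCFKO (2610 to 4219 CPM), with no overlap with the former groups. Library NOTCHWT_TCFKO 2 stood apart, with S100a8, a neutrophil gene, at 593 CPM against 0.025 to 68.7 CPM elsewhere, and the haemoglobin gene Hba-a1 at 104 CPM against 0.125 to 8.69 CPM. Library NOTCHWT_TCFWT 3 held the mast cell protease Mcpt4 at 25 CPM, and the other wild-type libraries held 0.692 and 1.12 CPM. In bulk samples fewer cells of a type and less RNA per cell cannot be told apart.

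The upstream windows of 5 granule genes are shown because these genes were lower together in NICD_TCFWT than in NOTCHWT_TCFWT. Each is the 250 bases before the RefSeq start (GRCm38.p6), printed 5′ to 3′ on the strand of the gene. RefSeq windows were found for 7 of the 10 genes, not for Zbtb16, Il2rb or Klrd1. Capitals mark matches, on either strand, to TGTGGT, the core letters bound by RUNX factors, to TGAGTCA (AP-1) and to TGACGT (the CRE core). The Gzmb window lies at chr14:56262335-56262584 (minus strand), that of Gzmc at chr14:56234658-56234907 (minus), that of Gzma at chr13:113100982-113101231 (minus), that of Prf1 at chr10:61297586-61297835 (plus) and that of Nkg7 at chr7:43436888-43437137 (plus).
Gzmb: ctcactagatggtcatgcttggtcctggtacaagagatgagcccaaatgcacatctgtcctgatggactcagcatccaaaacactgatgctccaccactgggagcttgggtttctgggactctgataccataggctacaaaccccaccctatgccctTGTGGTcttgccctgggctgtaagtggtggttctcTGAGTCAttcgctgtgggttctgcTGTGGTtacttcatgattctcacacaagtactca
Gzmc: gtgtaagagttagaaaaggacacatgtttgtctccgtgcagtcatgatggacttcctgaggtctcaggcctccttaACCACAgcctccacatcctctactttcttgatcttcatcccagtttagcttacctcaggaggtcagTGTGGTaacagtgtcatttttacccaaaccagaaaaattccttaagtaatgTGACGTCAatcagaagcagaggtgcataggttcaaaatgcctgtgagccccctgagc
Gzma: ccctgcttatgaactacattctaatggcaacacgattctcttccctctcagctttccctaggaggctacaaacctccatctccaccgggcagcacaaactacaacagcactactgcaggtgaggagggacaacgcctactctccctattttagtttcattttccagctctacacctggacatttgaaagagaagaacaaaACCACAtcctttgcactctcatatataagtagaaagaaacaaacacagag
Prf1: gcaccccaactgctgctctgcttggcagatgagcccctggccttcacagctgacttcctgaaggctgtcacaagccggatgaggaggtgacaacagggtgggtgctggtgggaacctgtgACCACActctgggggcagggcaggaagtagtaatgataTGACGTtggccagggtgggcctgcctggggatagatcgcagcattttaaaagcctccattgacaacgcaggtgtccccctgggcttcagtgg
Nkg7: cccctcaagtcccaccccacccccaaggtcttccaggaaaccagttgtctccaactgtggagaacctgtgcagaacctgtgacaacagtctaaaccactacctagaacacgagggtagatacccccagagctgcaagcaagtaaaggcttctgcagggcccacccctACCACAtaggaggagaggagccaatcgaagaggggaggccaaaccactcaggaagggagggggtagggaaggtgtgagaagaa

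All 5 windows held TGTGGT or its reverse complement ACCACA, and those of Rora and Tbx21 held neither. Of the 32851 RefSeq windows of this length, 14.0% held it. Gzmb has 2 matches, which begin 93 and 34 bases before the start, and Gzmc has 2, at 174 and 108 bases. Positions count from the RefSeq start, which differs from the gene coordinates given below. By those, the Gzmb gene ends at 56262260, short of its window. The Nkg7 and Prf1 genes start at 43437073 and 61297833, inside their windows. TGAGTCA was in the Gzmb window alone among the 7, and in 4.46% of all windows. TGACGT was in the windows of Gzmc and Prf1, and in 6.47% of all windows; in Gzmc its matches on both strands overlap, from 57 bases before the start. TGGGAA, a core of RBPJ, the DNA-binding partner of Notch, was in the windows of Prf1 and Tbx21 (21.6% of all windows). The TCF core CTTTGA was on neither strand of the 7 windows (13.8% of all windows). The T-box core TCACAC was in those of Gzmb and Nkg7 (12.3% of all windows). These are matches of letters, and binding was not measured. The 5 granule genes were picked by their levels in these data, and the motifs were not among the planned lists. Their shares beside those of all windows are therefore not a test of enrichment.

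Between NICD_TCFWT and NOTCHWT_TCFWT 5 of the 10 genes were lower (Gzma, Gzmb, Gzmc, Prf1 and Nkg7) and Zbtb16 was higher, by edgeR's quasi-likelihood test with Benjamini-Hochberg adjustment. Of all genes tested 20.4% were called, 9.75% lower and 10.6% higher. Between NOTCHWT_TCFKO and NOTCHWT_TCFWT 4 were lower (Gzmb, Gzmc, Prf1 and Nkg7) and Zbtb16 was higher, where 21.3% of all genes were called, 10.5% lower and 10.8% higher. Between NICD_TCFKO and NICD_TCFWT 4 were higher (Gzma, Gzmb, Gzmc and Klrd1), where 12.4% of all genes were called, 7.25% higher and 5.15% lower. Gzma, Gzmb, Gzmc and Zbtb16, 4 of the 10, were higher in NICD_TCFKO than in NOTCHWT_TCFKO, where 18.4% of all genes were called, 10.3% higher and 8.06% lower. Between NICD_TCFKO and NOTCHWT_TCFWT Zbtb16 was higher and Gzmb lower, where 6.30% of all genes were called, 4.01% higher and 2.30% lower. Between NOTCHWT_TCFKO and NICD_TCFWT edgeR called 0 of the 10, and 2.87% of all genes, 1.34% higher and 1.54% lower. Without adjustment 2 had a p under 0.05 (Zbtb16 and Klrd1), and DESeq2 called Zbtb16 alone (log2 -1.13, adjusted p = 0.0195).

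The libraries of 2 groups did not overlap for 8 of the 10 genes between NICD_TCFWT and NOTCHWT_TCFWT (44.2% of all genes), for 7 between NOTCHWT_TCFKO and NOTCHWT_TCFWT (37.0%) and for 7 between NICD_TCFKO and NICD_TCFWT (38.0%). They did not overlap for 5 between NICD_TCFKO and NOTCHWT_TCFKO (32.8%), 5 between NICD_TCFKO and NOTCHWT_TCFWT (25.9%) and 3 between NOTCHWT_TCFKO and NICD_TCFWT (27.8%). The median log2 fold change of the 10 was -1.20 for NICD_TCFWT and -0.38 for NOTCHWT_TCFKO, each against NOTCHWT_TCFWT, and 1.85 for NICD_TCFKO against NICD_TCFWT. Over all genes tested these medians were 0.00. The comparisons share groups, and the 10 genes moved in opposite directions, which a median hides.

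**Figure D1:**
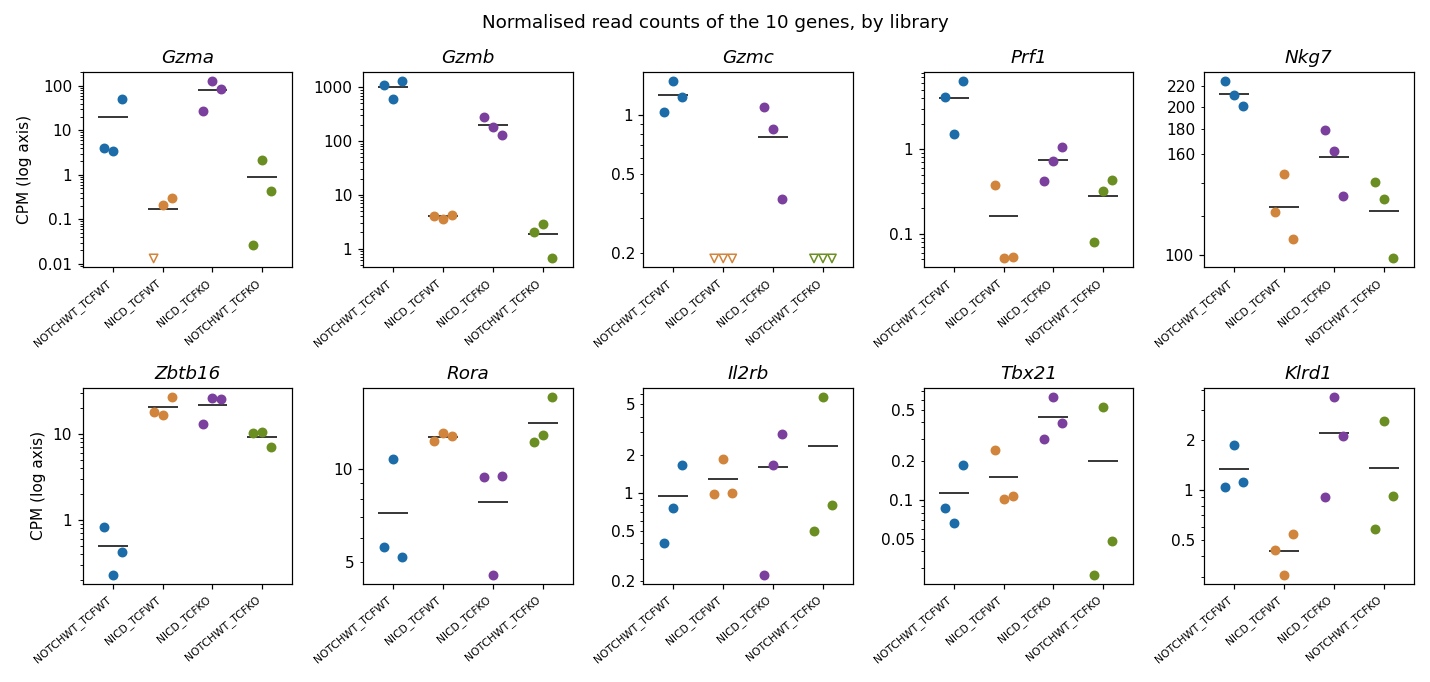
CPM of each of the 10 genes in each of the 12 libraries (log axis, 1 point per library, bars for the mean of 3, open triangles for libraries with no count). Gzmb spans 0.655 to 1324 CPM and is high in NOTCHWT_TCFWT and NICD_TCFKO, while Zbtb16 is lowest in NOTCHWT_TCFWT, at 0.231 to 0.836 CPM.

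Gzmb (ENSMUSG00000015437, mm10 chromosome 14, 56258838 to 56262260, minus strand) split the 12 libraries into a high and a low range. Its level was 1102, 600 and 1324 CPM in NOTCHWT_TCFWT and 275, 182 and 128 CPM in NICD_TCFKO. NICD_TCFWT held 4.04, 3.6 and 4.22 CPM, and NOTCHWT_TCFKO held 2.03, 2.89 and 0.655 CPM. No library lay between 4.22 and 128 CPM. Gzmb was 255-fold lower in NICD_TCFWT than in NOTCHWT_TCFWT (log2 fold change -7.99 ± 0.58 SE, edgeR adjusted p = 3.39e-05) and 542-fold lower in NOTCHWT_TCFKO than in NOTCHWT_TCFWT (log2 -9.09 ± 0.61, edgeR adjusted p = 1.6e-05). It was 49.4-fold higher in NICD_TCFKO than in NICD_TCFWT (log2 5.63 ± 0.52, edgeR adjusted p = 0.00034) and 105-fold higher than in NOTCHWT_TCFKO (log2 6.72 ± 0.56, edgeR adjusted p = 8.19e-05). The level in NICD_TCFKO did not reach that of the wild type: it was 5.16-fold lower (log2 -2.37 ± 0.44, edgeR adjusted p = 0.0158), with no overlap of libraries. This last call was lost without NICD_TCFKO 2 or 3, or without NOTCHWT_TCFWT 1 or 3 (adjusted p 0.0572 to 0.0623).

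Gzmc (ENSMUSG00000079186) lies in the same granzyme cluster of chromosome 14, at 56231441 to 56234656 on the minus strand, and showed the same split at a low level. It had 36, 45 and 53 counts in the wild-type libraries (1.04, 1.49 and 1.24 CPM) and 44, 35 and 15 counts in NICD_TCFKO (1.1, 0.847 and 0.374 CPM). None of the 6 libraries of NICD_TCFWT and NOTCHWT_TCFKO had a count, and 3 counts there, the limit that a count of 0 allows, are at most 0.0814 CPM. Set against a floor of 3 counts per library, Gzmc was at least 15.7-fold lower in NICD_TCFWT and at least 16.2-fold lower in NOTCHWT_TCFKO than in NOTCHWT_TCFWT (edgeR adjusted p = 0.00115 and 0.000975). NICD_TCFKO was at least 9.68-fold higher than NICD_TCFWT (edgeR adjusted p = 0.00323). Between NICD_TCFKO (0.774 ± 0.369 CPM, SD, n = 3) and NOTCHWT_TCFWT (1.25 ± 0.225 CPM) the libraries overlapped, and the difference was not called (log2 -0.69 ± 0.48, edgeR adjusted p = 0.468).

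Gzma (ENSMUSG00000023132, mm10 chromosome 13, 113093825 to 113100981, minus strand) took another order, with its highest level in NICD_TCFKO at 26.5, 130 and 84.9 CPM. The wild-type libraries held 3.95, 3.4 and 51.4 CPM, so that replicate 3, which also has the high Mcpt4, carried most of the group's counts. NICD_TCFWT had 0, 8 and 11 counts (0, 0.206 and 0.298 CPM) and NOTCHWT_TCFKO 1, 81 and 18 counts (0.0264, 2.15 and 0.436 CPM). Gzma was 479-fold higher in NICD_TCFKO than in NICD_TCFWT (log2 8.87 ± 1.84, edgeR adjusted p = 0.0161) and 92.3-fold higher than in NOTCHWT_TCFKO (log2 6.53 ± 1.58, edgeR adjusted p = 0.0222). It was 117-fold lower in NICD_TCFWT than in NOTCHWT_TCFWT (log2 -6.84 ± 1.74, edgeR adjusted p = 0.0242), and -4.43 on the log2 scale without NOTCHWT_TCFWT 3 (adjusted p = 0.0669).

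These 3 Gzma calls were not stable, although the libraries did not overlap. In limma-voom on all 12 libraries all 3 missed the threshold (adjusted p = 0.121, 0.0666 and 0.254). The first was lost without NICD_TCFKO 2 or any 1 library of NICD_TCFWT (adjusted p 0.0504 to 0.0663). The second was lost without NICD_TCFKO 2, NOTCHWT_TCFKO 1 or NOTCHWT_TCFKO 3 (0.0584 to 0.0656), or with only the libraries of both groups in the fit (0.0545), and the third also without any 1 library of NICD_TCFWT (0.0695 to 0.084). NOTCHWT_TCFKO against NOTCHWT_TCFWT missed the threshold in edgeR (log2 -4.50 ± 1.46, adjusted p = 0.0577) and passed in DESeq2 (adjusted p = 0.016). Between NICD_TCFKO and NOTCHWT_TCFWT the libraries overlapped (log2 2.03 ± 1.26, edgeR adjusted p = 0.394).

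The make-up of granzyme counts thus differed between the groups with high levels. Of all counts of the 10 annotated granzyme genes, Gzmb took 99.5, 99.0 and 96.1% in the wild-type libraries. In NICD_TCFKO it took 90.4, 58.0 and 59.6%, and Gzma 8.69, 41.3 and 39.5%. Per kilobase of exon, mean Gzmb and Gzma levels were 702 and 19.5 CPM in NOTCHWT_TCFWT, against 136 and 79.9 CPM in NICD_TCFKO. Gzmd, Gzme, Gzmg and Gzmn had no count in any library, Gzmf had 1 count in all, and Gzmk was at or below 0.266 CPM. Gzmm, on chromosome 10 and so outside both granzyme clusters, was at 0.836 to 1.77 CPM in the 12 libraries and was called in none of the 7 tests. In NOTCHWT_TCFKO 3 it had more counts (73) than Gzmb (27). Granzymes of the chromosome 14 cluster are close in sequence, and how reads that match several of them were counted is not given in the sources used here.

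**Figure D2:**
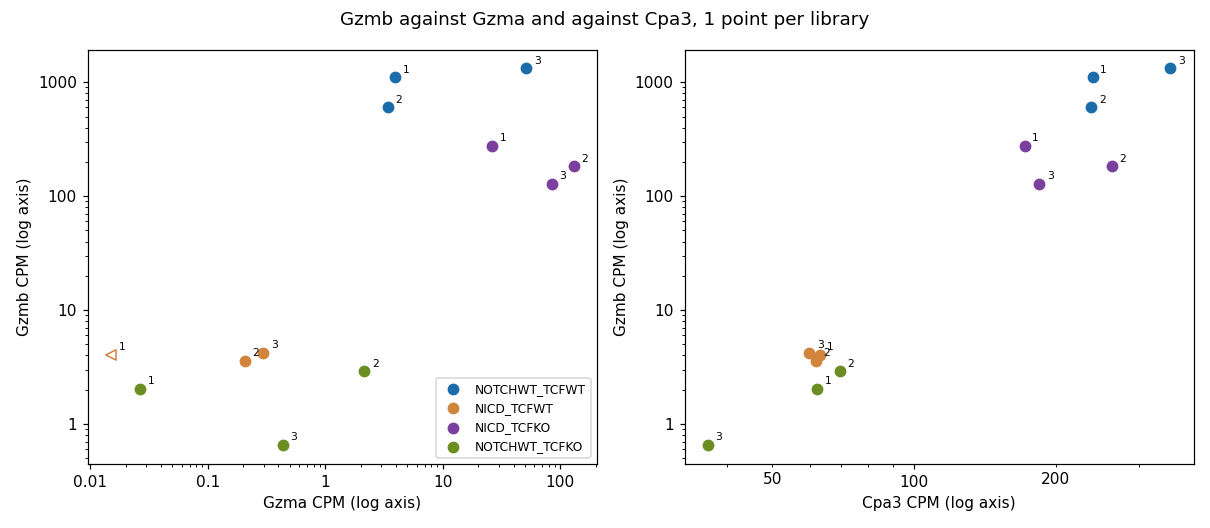
Gzmb CPM against Gzma CPM and against CPM of Cpa3, a mast cell gene (log axes, 1 point per library marked by replicate number, coloured by group; the open triangle is a library with no Gzma count). The NICD_TCFKO libraries lie at lower Gzmb than the wild-type ones, with Gzma from 26.5 to 130 CPM.

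Prf1 (ENSMUSG00000037202, mm10 chromosome 10, 61297833 to 61304680, plus strand) was highest in the wild-type libraries, at 4.1, 1.49 and 6.4 CPM. NICD_TCFWT held 0.38, 0.0514 and 0.0541 CPM, NICD_TCFKO 0.425, 0.726 and 1.07 CPM, and NOTCHWT_TCFKO 0.0793, 0.319 and 0.436 CPM. The 3 wild-type values lay above the 9 others. Prf1 was 24.7-fold lower in NICD_TCFWT (log2 -4.61 ± 0.90, edgeR adjusted p = 0.00523) and 14.4-fold lower in NOTCHWT_TCFKO (log2 -3.82 ± 0.85, edgeR adjusted p = 0.00931), each against the wild type. Between NICD_TCFKO and NICD_TCFWT it missed the threshold (log2 2.18 ± 0.85, edgeR adjusted p = 0.119); it passed without NICD_TCFWT 1 (log2 3.73, adjusted p = 0.0462) and in DESeq2 (adjusted p = 0.0484). Against the wild type, NICD_TCFKO was not called in edgeR (log2 -2.43 ± 0.79, adjusted p = 0.0978) and was called in DESeq2 (adjusted p = 0.0196). Per kilobase of exon its mean level in NOTCHWT_TCFWT was 1.55 CPM, against 702 CPM for Gzmb.

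Nkg7 (ENSMUSG00000004612, mm10 chromosome 7, 43437073 to 43438249, plus strand) was abundant everywhere and differed less. The levels were 226, 211 and 201 CPM in NOTCHWT_TCFWT, 122, 146 and 108 CPM in NICD_TCFWT, 179, 162 and 132 CPM in NICD_TCFKO, and 140, 130 and 98.2 CPM in NOTCHWT_TCFKO. The wild-type libraries were above the rest. Nkg7 was 1.70-fold lower in NICD_TCFWT (log2 -0.76 ± 0.15, edgeR adjusted p = 0.00633) and 1.73-fold lower in NOTCHWT_TCFKO (log2 -0.79 ± 0.15, edgeR adjusted p = 0.00478) than in the wild type. NICD_TCFKO and NICD_TCFWT overlapped, with no call (log2 0.33 ± 0.15, edgeR adjusted p = 0.177).

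Zbtb16 (ENSMUSG00000066687, mm10 chromosome 9, 48654297 to 48836222, minus strand) was low only in the wild-type group, where it had 29, 7 and 18 counts (0.836, 0.231 and 0.42 CPM). NICD_TCFWT held 18, 16.7 and 26.8 CPM, NICD_TCFKO 12.9, 26.1 and 25.5 CPM, and NOTCHWT_TCFKO 10.2, 10.5 and 7.08 CPM. The lowest of these 9 values was above the highest wild-type value. Against NOTCHWT_TCFWT, Zbtb16 was 41.3-fold higher in NICD_TCFWT (log2 5.35 ± 0.47, edgeR adjusted p = 5.77e-05), 43.3-fold higher in NICD_TCFKO (log2 5.42 ± 0.47, edgeR adjusted p = 0.000308) and 18.7-fold higher in NOTCHWT_TCFKO (log2 4.21 ± 0.45, edgeR adjusted p = 0.000158). These 3 comparisons share their control libraries. NICD_TCFKO and NICD_TCFWT, which differed 49.4-fold in Gzmb, differed in Zbtb16 by 0.07 ± 0.37 on the log2 scale (edgeR adjusted p = 0.929). The call between NICD_TCFKO and NOTCHWT_TCFKO (2.32-fold higher, log2 1.21 ± 0.38, edgeR adjusted p = 0.0493) was kept in 3 of 15 alternatives. It was lost without NICD_TCFKO 2 or 3 and without any 1 library of NOTCHWT_TCFKO (adjusted p 0.0849 to 0.154).

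Rora (ENSMUSG00000032238, mm10 chromosome 9, 68653786 to 69388246, plus strand) was at 5.6, 10.8 and 5.18 CPM in NOTCHWT_TCFWT and at 9.45, 4.55 and 9.46 CPM in NICD_TCFKO. NICD_TCFWT held 12.3, 13.1 and 12.7 CPM, and NOTCHWT_TCFKO 12.2, 12.9 and 17.1 CPM. The 6 libraries of these last groups lay above the 6 others, the reverse of the Gzmb split. In edgeR no pairwise difference of Rora passed. Against the wild type it was 0.83 ± 0.32 on the log2 scale for NICD_TCFWT (edgeR adjusted p = 0.0968) and 0.97 ± 0.32 for NOTCHWT_TCFKO (edgeR adjusted p = 0.055). Both passed without NOTCHWT_TCFWT 2 (log2 1.25 and 1.41, adjusted p = 0.0201 and 0.0114) and in DESeq2 (adjusted p = 0.0472 and 0.0143). Gm15511, annotated antisense within Rora, had no count.

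Tbx21 (ENSMUSG00000001444, mm10 chromosome 11, 97098071 to 97115331, minus strand) was near the limit of detection, with 1 to 26 counts per library. The levels were 0.0865, 0.0661 and 0.187 CPM in NOTCHWT_TCFWT, 0.244, 0.103 and 0.108 CPM in NICD_TCFWT, 0.3, 0.629 and 0.398 CPM in NICD_TCFKO, and 0.0264, 0.531 and 0.0485 CPM in NOTCHWT_TCFKO. The NICD_TCFKO libraries lay above all others except NOTCHWT_TCFKO 2. No pairwise difference was called with all libraries. Without NOTCHWT_TCFKO 2, which has the high S100a8, Tbx21 was higher in NICD_TCFKO than in NOTCHWT_TCFKO (log2 3.45, edgeR adjusted p = 0.0213).

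Il2rb (ENSMUSG00000068227, mm10 chromosome 15, 78479256 to 78495271, minus strand) was called in no comparison. It was at 0.404, 0.76 and 1.66 CPM in NOTCHWT_TCFWT, 0.977, 1.85 and 1 CPM in NICD_TCFWT, 0.225, 1.65 and 2.91 CPM in NICD_TCFKO, and 0.502, 5.71 and 0.8 CPM in NOTCHWT_TCFKO. All 4 groups overlapped, and the highest value was that of NOTCHWT_TCFKO 2.

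Klrd1 (ENSMUSG00000030165, mm10 chromosome 6, 129591782 to 129598775, plus strand) was lowest in NICD_TCFWT, at 0.434, 0.309 and 0.541 CPM. NOTCHWT_TCFWT held 1.04, 1.85 and 1.12 CPM, NICD_TCFKO 0.9, 3.61 and 2.09 CPM, and NOTCHWT_TCFKO 0.581, 2.58 and 0.921 CPM. The other 3 groups overlapped one another. Klrd1 was 5.14-fold higher in NICD_TCFKO than in NICD_TCFWT (log2 2.35 ± 0.63, edgeR adjusted p = 0.0347). That call was lost without NICD_TCFKO 2 or 3 and without any 1 library of NICD_TCFWT (adjusted p 0.0719 to 0.139).

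**Figure D3:**
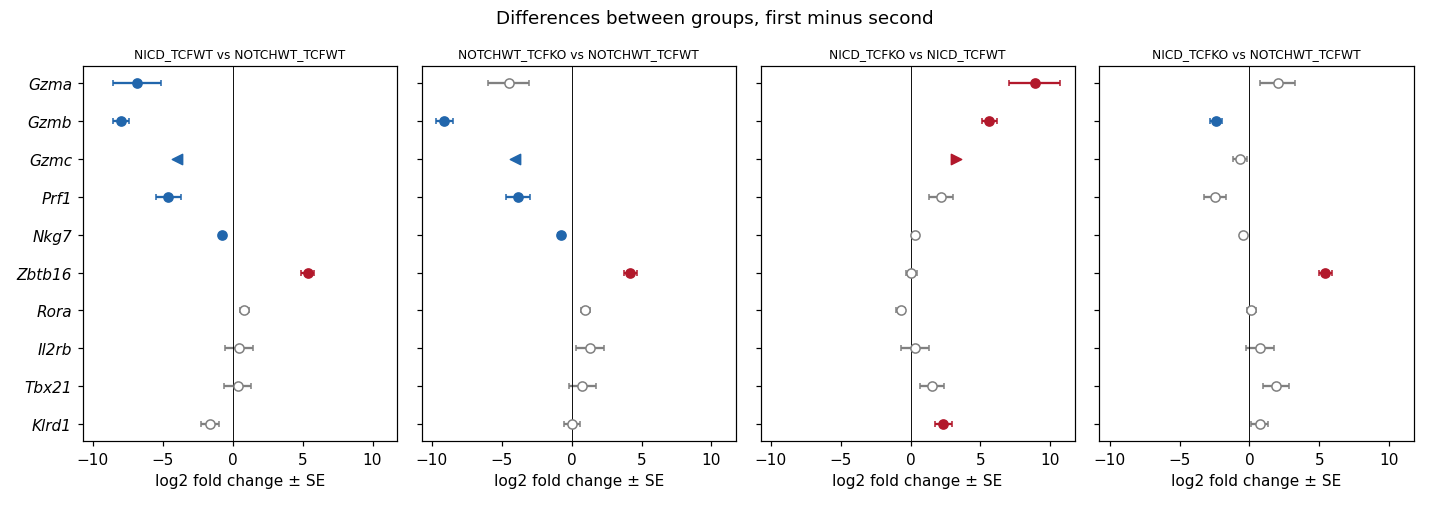
Log2 fold change ± SE of each of the 10 genes in 4 comparisons, first group minus second (red, higher; blue, lower; open grey, adjusted p of 0.05 or more; triangles, the least change a floor of 3 counts allows for Gzmc where a group had no count). Gzmb is called in each panel, from -9.09 to 5.63, and Zbtb16 is higher in each comparison with the wild type, by 4.21 to 5.42.

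Whether the difference between the Tcf7 labels itself depended on the N1IC label was tested by an interaction term, which called 7 of the 10 genes, 5 positive and 2 negative, where 27.4% of all genes were called (13.8% positive, 13.5% negative). For Gzmb the change from NICD_TCFWT to NICD_TCFKO exceeded that from NOTCHWT_TCFWT to NOTCHWT_TCFKO by 14.72 ± 0.80 on the log2 scale (edgeR adjusted p = 2.66e-06). Gzma, Gzmc, Prf1 and Nkg7 were positive too. Zbtb16 (log2 -4.14 ± 0.58, edgeR adjusted p = 0.000536) and Rora were negative.

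Of 20 granule and killing genes, Prf1 and Nkg7 among them, 17 were tested, and 6 were lower and 1 higher in NICD_TCFWT than in NOTCHWT_TCFWT (over all genes 9.75% and 10.6%), with a median log2 fold change of -0.24. Fasl, a death ligand, was at 6.98, 2.18 and 2.43 CPM in NOTCHWT_TCFWT and 2.6, 7.58 and 6 CPM in NICD_TCFKO. It was at 0.217, 0 and 0.108 CPM in NICD_TCFWT and at 0.132, 0.345 and 0.0727 CPM in NOTCHWT_TCFKO, with no overlap with the high groups. Fasl was lower in NICD_TCFWT than in NOTCHWT_TCFWT (log2 -5.13 ± 0.95, edgeR adjusted p = 0.00433) and higher in NICD_TCFKO than in NICD_TCFWT (log2 5.61 ± 0.97, edgeR adjusted p = 0.00534). Serpinb6b, of the serpin family that inhibits granule proteases, was at 65.8 to 70.3 CPM in NOTCHWT_TCFWT, 17.1 to 21.2 in NICD_TCFWT, 43.3 to 49.4 in NICD_TCFKO and 15.5 to 18.4 in NOTCHWT_TCFKO. It was called in the same directions as Gzmb (log2 -1.81 ± 0.10 for NICD_TCFWT against the wild type, edgeR adjusted p = 3.07e-06). Tnfsf10, which encodes the death ligand TRAIL, had the same order of means, at 163 ± 9.59, 78.7 ± 4.53, 117 ± 7.35 and 74.5 ± 17.3 CPM (SD, n = 3). The 1 higher gene was Stxbp2, a granule fusion gene (log2 0.26 ± 0.06, edgeR adjusted p = 0.00846).

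In NICD_TCFKO against NICD_TCFWT 3 of these 17 were higher (Fasl, Serpinb6b and Tnfsf10) and Stxbp2 was lower (over all genes 7.25% higher and 5.15% lower), with a median of 0.35. The Tnfsf10 call was lost without NICD_TCFKO 2, NICD_TCFWT 1 or NICD_TCFWT 3 (adjusted p 0.069 to 0.0729), and the Stxbp2 call without NICD_TCFWT 2 (0.0575). In NOTCHWT_TCFKO against NOTCHWT_TCFWT 8 were lower and 3 higher (Rab27a, Lamp1 and Ctsc), where 10.5% and 10.8% of all genes were, with a median of -0.45. The lower count was 5 without NOTCHWT_TCFKO 1. The higher count was 1 without NOTCHWT_TCFWT 1 or 2 or without NOTCHWT_TCFKO 1 or 2, and 2 without NOTCHWT_TCFWT 3. Rab27a, which moves granules to the membrane, was called in each of these (log2 0.81 ± 0.17, edgeR adjusted p = 0.00697), the direction opposite to Gzmb. Ctsw, a cathepsin of cytotoxic cells, was lower there and higher in NICD_TCFKO than in NOTCHWT_TCFKO (log2 0.94 ± 0.23, edgeR adjusted p = 0.0183), and both calls were lost without NOTCHWT_TCFKO 1.

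Of 24 NK receptor genes 15 were tested and 3 called between NICD_TCFWT and NOTCHWT_TCFWT, near the 20.4% of all genes. Klrb1c was higher and Cd244a and Cd160 were lower in NICD_TCFWT, with a median log2 fold change of 0.05. Klrb1c, which encodes NK1.1, was at 9.64, 9.49 and 17.9 CPM in NICD_TCFWT and at 0.606, 1.19 and 1.07 CPM in the wild type (log2 3.69 ± 0.55, edgeR adjusted p = 0.00126). Cd160, a receptor of NK cells and intraepithelial lymphocytes, was at 13.4, 33.8 and 18.2 CPM in NICD_TCFKO against 0.109, 0.103 and 0.162 CPM in NICD_TCFWT (log2 7.42 ± 1.01, edgeR adjusted p = 0.00189). Its lower level in NICD_TCFWT than in the wild type was lost without any 1 of these 6 libraries (adjusted p 0.0506 to 0.0896), and that of Cd244a without NOTCHWT_TCFWT 2 (0.0503). In NOTCHWT_TCFKO against NOTCHWT_TCFWT Cd244a, an NK receptor of the SLAM family, was lower (log2 -1.35 ± 0.22, edgeR adjusted p = 0.00216). Fcer1g and Fcgr3, Fc receptor genes shared with myeloid cells, were higher there (log2 1.73 ± 0.32 and 5.11 ± 1.09, edgeR adjusted p = 0.00401 and 0.00993). Klrb1f, of the NKR-P1 family, was higher too (log2 1.20 ± 0.33, edgeR adjusted p = 0.0257), a call lost without NOTCHWT_TCFKO 1 or 2 or any 1 wild-type library (adjusted p up to 0.104).

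Of 16 regulators of cytotoxic cells 14 were tested. In NICD_TCFWT against NOTCHWT_TCFWT 2 were called, both higher, a smaller share than the 20.4% of all genes. The median log2 fold change was 0.06. Nfil3, a factor needed for NK and innate lymphoid progenitors, was at 1.53 to 1.95 CPM in the wild type, 5.32 to 5.92 in NICD_TCFWT, 4.4 to 5.86 in NICD_TCFKO and 8.17 to 9.11 in NOTCHWT_TCFKO, the low group being the same as for Zbtb16. It was 3.16-fold higher in NICD_TCFWT than in the wild type (log2 1.66 ± 0.17, edgeR adjusted p = 0.000159). Irf8, a regulator of monocyte and dendritic lineages, was the other (log2 3.67 ± 0.74, edgeR adjusted p = 0.00843). In NICD_TCFKO against NICD_TCFWT Ets1 (log2 1.85 ± 0.26, edgeR adjusted p = 0.00215) and Id2 were higher. Id2, an inhibitor of E proteins needed by all innate lymphoid cells, was at 10, 48.2 and 32 CPM in NICD_TCFKO and 5.79 to 6.7 CPM in NICD_TCFWT (log2 2.27 ± 0.52, edgeR adjusted p = 0.0208), a call lost without NICD_TCFKO 2 or 3 or any 1 library of NICD_TCFWT (adjusted p up to 0.0805). Zeb2, which matures NK cells, was higher in NOTCHWT_TCFKO than in NOTCHWT_TCFWT (log2 0.80 ± 0.22, edgeR adjusted p = 0.0269), also a call lost without NOTCHWT_TCFKO 1 or 2 or any 1 wild-type library (up to 0.108). Tox, needed for early innate lymphoid cells, was higher in NICD_TCFKO than in NOTCHWT_TCFKO (log2 1.27 ± 0.34, edgeR adjusted p = 0.0281). That call was lost without NICD_TCFKO 2 or 3 or NOTCHWT_TCFKO 1 (0.0651 to 0.0918). Runx3 (95.9 to 139 CPM) and Prdm1 (1.28 to 6.11 CPM), regulators of cytotoxic lymphocytes, were called in no comparison, and Eomes, the T-box factor of NK cells, was at or below 0.345 CPM and did not pass the filter.

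Of 29 innate lymphoid progenitor and helper genes, Zbtb16, Rora, Tcf7, Gata3 and Il7r among them, 22 were tested. In NICD_TCFKO against NICD_TCFWT 10 were higher and Il18rap was lower (over all genes 7.25% and 5.15%), with a median log2 fold change of 0.84; the Il18rap call was lost without NICD_TCFKO 2 or NICD_TCFWT 1 (adjusted p up to 0.0586). In NICD_TCFWT against NOTCHWT_TCFWT 4 were higher and 6 lower (over all genes 10.6% and 9.75%), with a median of 0.00. Il17rb, the IL-25 receptor chain of ILC2, was high where Gzmb was high: the levels were 33, 30.8 and 35 CPM in NOTCHWT_TCFWT, 6.08, 5.68 and 7.3 CPM in NICD_TCFWT, 50.8, 154 and 117 CPM in NICD_TCFKO, and 9.35, 7.22 and 7.64 CPM in NOTCHWT_TCFKO. It was 16.9-fold higher in NICD_TCFKO than in NICD_TCFWT (log2 4.08 ± 0.35, edgeR adjusted p = 0.000132). Ahr, a ligand-activated factor of innate lymphoid cells, had the same split, at 22.9 to 49.9, 7.02 to 8.17, 21.5 to 49.9 and 7.85 to 9.14 CPM in the same order of groups. Il12rb2, an IL-12 receptor chain, did so too, at 53.6 to 56.2, 18.7 to 30.1, 76.5 to 135 and 16.8 to 21.2 CPM.

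Gata3, a regulator of T cells and ILC2, was at 32.8, 68.7 and 52 CPM in NICD_TCFKO and 10.6 to 12.9 CPM in NICD_TCFWT (4.49-fold higher, edgeR adjusted p = 0.00107). Il7r, the receptor of lymphoid progenitors for IL-7, was lowest in the wild type, as Zbtb16 was, at 0.26 to 0.724 CPM. It was at 2.29 to 7.63 CPM in NICD_TCFWT, 10.3 to 15.9 in NOTCHWT_TCFKO and 31.7 to 83.4 in NICD_TCFKO. Il4 was at 10.3 to 13.1 CPM in the wild type and at 0.343 to 3.6 CPM in the other 9 libraries, below the wild type as for Prf1. Maf, a factor of T and innate lymphoid cells, was lowest in NICD_TCFWT, at 1.98 to 3.78 CPM against 5.3 to 13 CPM elsewhere (log2 -1.78 ± 0.26 against the wild type, edgeR adjusted p = 0.00113). Pdcd1, which marks innate lymphoid precursors, was lowest in NOTCHWT_TCFKO, at 0.0531 to 0.218 CPM against 0.663 to 0.926 CPM in the wild type (log2 -2.39 ± 0.57, edgeR adjusted p = 0.0132). The ILC2 cytokine genes Il5 and Il13 were at or below 0.165 CPM everywhere.

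Of 16 IL-2 and IL-15 receptor and signalling genes 15 were tested, and 3 were lower (Il2rg, Jak1 and Stat5a) and Bcl2 higher in NICD_TCFWT than in NOTCHWT_TCFWT, 4 of 15 beside 20.4% of all genes, with a median log2 fold change of 0.29. Il2rg, the common gamma chain, was at 158 to 169 CPM in NOTCHWT_TCFWT, 54.1 to 92.2 in NICD_TCFWT, 109 to 125 in NICD_TCFKO and 38.6 to 67.4 in NOTCHWT_TCFKO (log2 -1.13 ± 0.21 for NICD_TCFWT against the wild type, edgeR adjusted p = 0.0043). Jak1, the kinase bound by Il2rb, was lower by a smaller amount (log2 -0.48 ± 0.07, edgeR adjusted p = 0.0015). The Stat5a call was lost without NICD_TCFWT 1 or NOTCHWT_TCFWT 3 (adjusted p up to 0.0708). Bcl2, a survival gene downstream of these receptors, was low in the groups where Il2rg was high. It was at 30.3 ± 6.82, 180 ± 18, 76.3 ± 12.9 and 160 ± 21.9 CPM (SD, n = 3) in the same order of groups. In NICD_TCFWT Bcl2 was higher than in the wild type (log2 2.57 ± 0.19, edgeR adjusted p = 1.46e-05). In NICD_TCFKO against NICD_TCFWT Il2ra and Jak1 were higher, and Bcl2 and Il15ra lower (12.4% of all genes were called); the Il15ra call was lost without NICD_TCFKO 2 or 3 or NICD_TCFWT 1 or 3 (adjusted p up to 0.0745). Stat5b, a signal carrier of Il2rb, was slightly higher in NICD_TCFKO than in NOTCHWT_TCFKO (log2 0.34 ± 0.08, edgeR adjusted p = 0.0124). Il2ra, the alpha chain and a Notch target of early T cells, was at 395, 1265 and 745 CPM in NICD_TCFKO and between 0.108 and 3.38 CPM in the 9 other libraries (log2 11.59 ± 1.09, edgeR adjusted p = 0.000403).

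Markers of cells that a sort could carry along were read beside the granzymes. Of 12 NK cell genes, the 8 outside the set of 10 (without Gzma, Prf1, Tbx21 and Il2rb) summed to 1.21 to 3.62 CPM in NOTCHWT_TCFWT, 10.7 to 20 in NICD_TCFWT, 7.31 to 16.1 in NICD_TCFKO and 3.25 to 15.5 in NOTCHWT_TCFKO, with the lowest median, 1.59 CPM, in the wild type. Klrb1c alone made up most of this sum in NICD_TCFWT. Among the defining NK cell genes, Ncr1 was at or below 1.38 CPM in every library, and Klra8 and Klra4 had no count in the wild-type libraries and at most 0.654 CPM elsewhere. The 13 T cell genes summed to 362 to 403 CPM in NOTCHWT_TCFWT, 36.9 to 56.1 in NICD_TCFWT, 444 to 1248 in NICD_TCFKO and 30.9 to 52.9 in NOTCHWT_TCFKO. Of the 11 tested, 3 were higher and 4 lower in NICD_TCFWT than in NOTCHWT_TCFWT (over all genes 10.6% and 9.75%). Their median log2 fold change was -1.12. In NICD_TCFKO against NICD_TCFWT 9 were higher and 0 lower (over all genes 7.25% and 5.15%), with a median of 6.60. In the wild type 5 of these 13 had a mean of at least 1 CPM. Trbc2, a T cell receptor constant gene, made up only a part of the sum there, at 121 to 146 CPM. Cd3e was at 0.0288 to 0.163 CPM and Cd3g and Trac were at 0 to 0.117 CPM. In NICD_TCFKO Cd3g was at 14.3, 89.8 and 94.6 CPM and Cd3e at 3.88, 26 and 28.6 CPM, both lowest in replicate 1, which also has the lowest Gzma and the highest Gzmb of its group. Trac was at or below 0.0484 CPM there.

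The 10 mast cell and basophil genes summed to 581 to 806 CPM in NOTCHWT_TCFWT, 369 to 425 in NICD_TCFWT, 346 to 395 in NICD_TCFKO and 275 to 577 in NOTCHWT_TCFKO. Of the 9 tested, 2 were higher and 1 lower in NICD_TCFWT than in NOTCHWT_TCFWT (over all genes 10.6% and 9.75%). Their median log2 fold change was 0.96. In NICD_TCFKO against NICD_TCFWT 1 was higher and 3 lower (over all genes 7.25% and 5.15%), with a median of -0.84. Both medians had the opposite sign to Gzmb. The sums, however, were higher in the wild type than in NICD_TCFWT, as Gzmb was, and those of NICD_TCFKO and NICD_TCFWT overlapped. Cpa3, 1 of the 10, varied with Gzmb, at 240, 238 and 350 CPM in the wild type, 63, 61.8 and 59.9 CPM in NICD_TCFWT, 172, 263 and 184 CPM in NICD_TCFKO, and 62.1, 69.4 and 36.4 CPM in NOTCHWT_TCFKO. The tryptase gene Tpsb2 was instead at 0 to 0.0233 CPM in the wild type and 18.6 to 30.5 CPM in NICD_TCFWT. Among the 7 Notch target genes is Il2ra, which made up a large part of their sums in NICD_TCFKO. The 7 summed to 448 to 584, 10.6 to 19.9, 827 to 1739 and 9.53 to 19.8 CPM in NOTCHWT_TCFWT, NICD_TCFWT, NICD_TCFKO and NOTCHWT_TCFKO, the same high and low groups as Gzmb. The 8 neutrophil and monocyte genes went the other way, at 77.6 to 134, 1457 to 5902, 366 to 1216 and 1307 to 8784 CPM in the same order of groups. The sums of the 11 LSK cell genes, given above, were also higher in the groups with low Gzmb. The 8 ILC2 genes outside the set of 10, Il17rb and Gata3 among them, were high and low in the same groups as Gzmb. They summed to 57.1 to 106, 27.5 to 34.5, 91.5 to 231 and 30.2 to 52 CPM in the same order of groups. The part of T, NK, ILC2, mast, myeloid or LSK cells, or of Notch targets, in the granzyme levels was not tested.

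**Figure D4:**
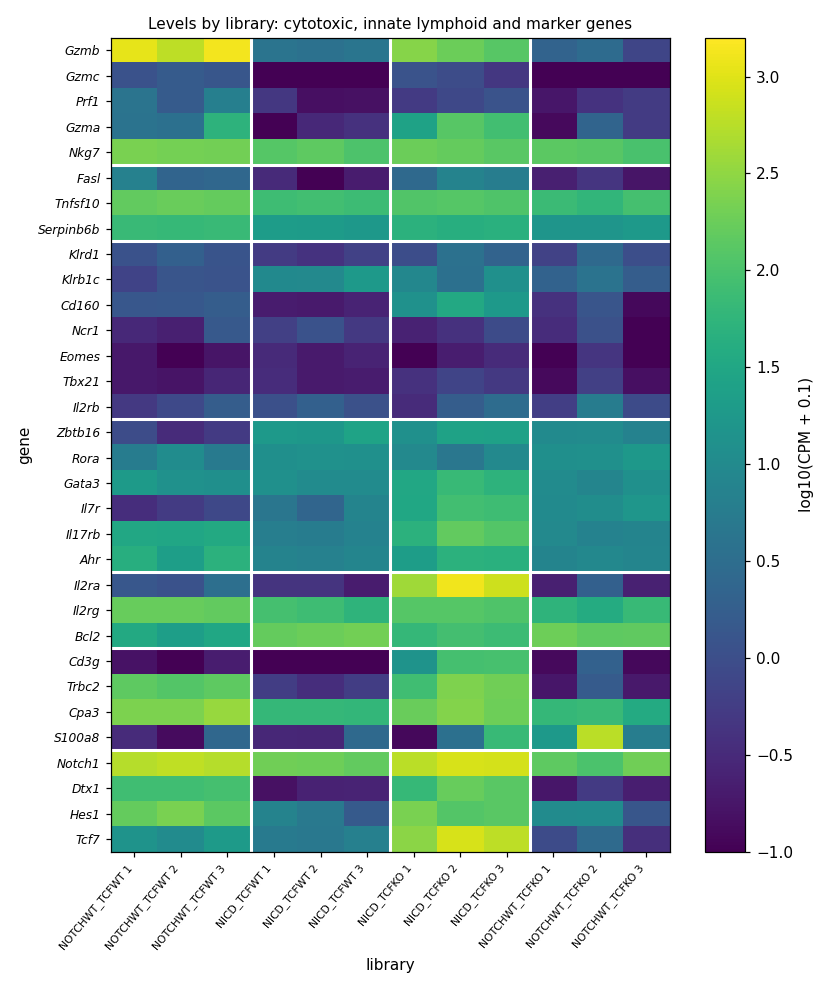
Level of 32 genes (rows, in blocks by role) in the 12 libraries (columns, in blocks by group), as log10 of CPM + 0.1. Gzmb, Fasl, Il17rb, Ahr and Cpa3 are high in the same blocks, NOTCHWT_TCFWT and NICD_TCFKO; Il2ra is at 395 to 1265 CPM in NICD_TCFKO and at or below 3.38 CPM elsewhere.

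The genes with levels most like those of Gzmb were sought by Pearson's r of log2 CPM over the 12 libraries, among 10657 genes with a mean of at least 5 CPM in a group. They were Scin (r = 0.992), which encodes an actin-severing protein, Col18a1 (0.983), Itgal (0.981), the alpha chain of the adhesion receptor LFA-1, Zfp385a (0.980) and Ankrd27 (0.980). Scin averaged 519, 7.74, 183 and 5.39 CPM in NOTCHWT_TCFWT, NICD_TCFWT, NICD_TCFKO and NOTCHWT_TCFKO. For Zbtb16 they included Lgals1 (r = 0.957), which encodes galectin-1, Anxa2 (0.953), Fam102b (0.942) and Bcat1 (0.933). Lgals1 averaged 4.38, 75.3, 74.8 and 83.8 CPM in the same order. The libraries fall into groups that all genes share, so r describes the likeness of group levels and no more.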

How the data were processed

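Gene expression was measured with single-end reads of 75 nt in 12 libraries. The tools named in the submitters' processing notes are HISAT2, featureCounts 1.4.4, cutadapt 1.9.1, bcl2fastq 2.17, limma and edgeR 3.28.0, with the build mm10; their roles and the strand setting are not given in the sources used here. The authors deposited raw counts per Ensembl gene and a table of log2 values for 15759 genes, which could be recomputed as log2 of the count plus 0.5 with 1 constant per library.

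Symbols came from GENCODE M21 (37693 genes matched) and promoter sequences from RefSeq (GRCm38.p6). Results used the counts in edgeR 4.0.16 (R 4.3.3): filterByExpr by group, TMM, 1 mean per group over all 12 libraries, robust quasi-likelihood F tests, which are two-sided. A call is a Benjamini-Hochberg adjusted p below 0.05 over the 16024 genes. The common biological coefficient of variation was 0.299. Each SE is the log2 fold change over the root of its F statistic. The code was tested on simulated data. Limits for a count of 0 cover counting error only. Alternatives were RLE size factors, 2 other filters, DESeq2 1.42.0, voom (limma 3.58.1), the compared groups alone, the replicate number as a block, an assumed batch (replicate 3 of NOTCHWT_TCFWT, NICD_TCFWT and NICD_TCFKO, whose S numbers in the titles repeat those of other libraries; no label names a batch), the deposited log2 table, and each library left out.

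The 10 genes and all lists were chosen with earlier results of these data known. Text names were drawn from the 10 genes, defining genes, up to 4 called genes per list and comparison with the smallest p, and the likeness search. Kit, Ly6a, S100a8, Hba-a1, Mcpt4, Lamp1, Il18rap, Il4, Il5, Il13, Klra4, Klra8, Trbc2, Trac, Cd3g, Cpa3, Tpsb2 and granzymes outside the 10 were named after their values were seen. One gene of the likeness search is not reported here.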

Additional observations from a re-analysis of the deposited data

Results flagged for a closer look

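The change that went with the labelled Tcf7 deletion differed between the libraries with and without labelled N1IC for 7 of the 10 genes, by the interaction term of edgeR's quasi-likelihood model (Benjamini-Hochberg over 16024 genes, of which 27.4% were called). The difference (log2, change with labelled N1IC minus change without it) was 14.72 ± 0.80 SE for Gzmb (adjusted p = 2.66e-06), 13.37 ± 2.35 for Gzma (adjusted p = 0.00314), 6.00 ± 1.20 for Prf1 (adjusted p = 0.004) and 1.13 ± 0.22 for Nkg7 (adjusted p = 0.00341). Gzmc gave 16.48 (adjusted p = 0.000183), a fitted value that depends on the prior count because 2 groups had no count. It was negative for the regulators Zbtb16, at -4.14 ± 0.58 (adjusted p = 0.000536), and Rora, at -1.67 ± 0.46 (adjusted p = 0.0195). The Rora call was lost without NOTCHWT_TCFWT 1 (adjusted p = 0.0509), and the 6 other calls held in every alternative that gave a value. Tcf7 itself was highest in the libraries labelled as its deletion with N1IC, so the term compares libraries so labelled.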

How the results depend on the processing

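Of the alternative values of the 10 genes' fold changes, 958 kept their direction and side of the threshold, 38 lost and 23 gained a call, and 29 changed sign, none of them a called one. Calls of Gzmb, Gzmc, Prf1, Nkg7 and Zbtb16 in NICD_TCFWT and NOTCHWT_TCFKO against NOTCHWT_TCFWT held in every alternative that gave a value.

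DESeq2 called 3186 genes for NICD_TCFKO vs NICD_TCFWT (against 1986), 2025 for NICD_TCFKO vs NOTCHWT_TCFWT (1010) and 1655 for NOTCHWT_TCFKO vs NICD_TCFWT (460), and 1 of the 10 in the last (0). Limma-voom called 2 of the 10 for NICD_TCFKO vs NICD_TCFWT (4). The compared groups alone gave 1238 genes and 2 of the 10 for NICD_TCFKO vs NOTCHWT_TCFKO (2942 and 4), and 538 genes for NICD_TCFKO vs NOTCHWT_TCFWT. The deposited log2 table has no value for Gzmc, Prf1, Il2rb and Tbx21. Of the other 6 genes it gave 3 calls for NOTCHWT_TCFKO vs NOTCHWT_TCFWT, the same as before without Gzmc and Prf1, and 2 for NICD_TCFKO vs NOTCHWT_TCFKO, where Zbtb16 was lost (adjusted p = 0.106). With a replicate block 291 genes were called for NOTCHWT_TCFKO vs NICD_TCFWT (460). Deviations from the group means had r of -0.406 to 0.464 in 18 pairs of same-numbered libraries (median 0.0368, 6 pairs above 0.1). In 36 pairs of differently numbered libraries r was -0.455 to 0.470 (median -0.0143, 10 pairs above 0.1). With ranges this wide, a step shared by some same-numbered libraries cannot be told. With the block Gzma in NOTCHWT_TCFKO vs NOTCHWT_TCFWT (adjusted p = 0.0439), Nkg7 in NICD_TCFKO vs NOTCHWT_TCFKO (0.0409) and vs NOTCHWT_TCFWT (0.0431), and the Klrd1 interaction (0.0452) passed, and Zbtb16 in NICD_TCFKO vs NOTCHWT_TCFKO did not (0.0923). A term for an assumed batch, replicate 3 of 3 groups, whose S numbers in the titles repeat, changed 2 calls of the 10 genes, those of Zbtb16 (0.0821) and Nkg7 (0.0471) in NICD_TCFKO vs NOTCHWT_TCFKO.

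With 1 library left out, the genes called ranged from 2024 to 2554 for NICD_TCFWT vs NOTCHWT_TCFWT (3263), 917 to 2688 for NICD_TCFKO vs NICD_TCFWT, 2201 to 3847 for NOTCHWT_TCFKO vs NOTCHWT_TCFWT (3413), 1610 to 3302 for NICD_TCFKO vs NOTCHWT_TCFKO, 368 to 1285 for NICD_TCFKO vs NOTCHWT_TCFWT and 161 to 2065 for NOTCHWT_TCFKO vs NICD_TCFWT. Of the 10, in the same order, 5 to 7, 2 to 4, 5 to 6, 2 to 4, 1 to 2 and 0 were called, and 6 to 9 for the interaction (7).

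Sign changes were of Il2rb in NICD_TCFKO vs NICD_TCFWT (log2 -0.23 with voom, -0.12 with the block), of Klrd1 in NOTCHWT_TCFKO vs NOTCHWT_TCFWT (-0.19 with voom, -0.15 with the block, -0.20 with the deposited table) and, with voom, of Tbx21 in NOTCHWT_TCFKO vs NOTCHWT_TCFWT (-0.17) and vs NICD_TCFWT (-0.50). With 1 library left out, Il2rb ranged from -0.44 to 0.83 in NICD_TCFKO vs NICD_TCFWT, -0.55 to 2.01 in NOTCHWT_TCFKO vs NOTCHWT_TCFWT, -0.023 to 1.45 in NICD_TCFKO vs NOTCHWT_TCFWT, -1.33 to 1.30 in NICD_TCFKO vs NOTCHWT_TCFKO, -0.97 to 1.37 in NOTCHWT_TCFKO vs NICD_TCFWT and -1.74 to 0.88 in the interaction. Tbx21 ranged from -0.12 to 0.94 in NICD_TCFWT vs NOTCHWT_TCFWT, -1.55 to 1.36 in NOTCHWT_TCFKO vs NOTCHWT_TCFWT and -1.91 to 0.93 in NOTCHWT_TCFKO vs NICD_TCFWT. The range was -0.84 to 0.41 for Klrd1 in NOTCHWT_TCFKO vs NOTCHWT_TCFWT, -0.066 to 0.55 for Rora in NICD_TCFKO vs NOTCHWT_TCFWT, -0.081 to 0.33 for Zbtb16 in NICD_TCFKO vs NICD_TCFWT and -0.13 to 0.13 for Nkg7 in NOTCHWT_TCFKO vs NICD_TCFWT. Without NOTCHWT_TCFKO 2, 7 of the 29 sign changes arose, the most of any alternative. That library held 215 Il2rb counts, against 19 and 33 in the others of its group, and 20 Tbx21 counts, against 1 and 2. Most of the differences that changed sign were small or rested on few counts. Except for fewer libraries or genes in a fit, the cause was not tested.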
